A study of Mus musculus with 11 samples.

Results

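Genes of fatty acid uptake, storage, synthesis and oxidation were followed in cells of the liver sinusoidal endothelium (LSEC), which lines the hepatic capillaries and is fenestrated. They were chosen by name, as a list of 41 genes that covers the route of a fatty acid from circulating lipoproteins to lipid droplets and mitochondria. Of these, 38 had a transcript cluster (the probe group of a gene on the array) with their symbol, out of 19572 symbol-bearing clusters and 22206 clusters tested. Acsl1, Acsl3 and Scd2 were not analysed here. The 5 knockout (KO) arrays came from Atg5lox/lox;VE-cadherin-Cre mice, titled autophagy deficient, and the 6 wild type (WT) arrays from Atg5lox/lox mice without Cre. Both genotypes thus carried the floxed Atg5 alleles, were put on a high fat diet at 8 weeks of age and were sampled after 2 weeks of it. The VE-cadherin promoter drives Cre in endothelial cells at large, not in LSEC alone. The series concerns defective autophagy of the endothelium, for which Atg5 is needed, in steatohepatitis. Each array was titled a biological replicate. Whether an array was a single animal or a pool was not stated, and p-values therefore measure only how far these samples spread, which may be technical.

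Endothelium handles fatty acids before parenchymal cells receive them. Lipoprotein lipase, held on the capillary wall by GPIHBP1, frees fatty acids from triglyceride-rich lipoproteins, and transport and binding proteins carry them into and through the cell. Acyl-CoA synthetases activate them, the carnitine shuttle moves long chains into mitochondria for beta-oxidation, and surplus is esterified into droplets coated by perilipins, from which lipases release it again. In liver, hepatocytes run the steps from uptake onward at high rate with some isoforms of their own, such as FABP1, FATP2 (Slc27a2) and FATP5 (Slc27a5). Genes of fatty acid oxidation and droplet coating are known targets of the PPAR nuclear receptors, which bind direct repeats of the half-site AGGTCA.

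Several facts of the arrays bear on every result. Atg5 read between 7.48 and 7.90 on the log2 scale in KO arrays and between 7.38 and 7.59 in WT arrays. Its probes may lie outside the floxed part, so the genotype is left unchecked by it and directions follow the labels. The 18 LSEC markers had a mean of 11.94 to 12.24 in KO arrays and 11.92 to 12.29 in WT arrays, and each read above the array's antigenomic background (the mean of its 23 background rows) in all 11 arrays. Hepatocyte transcripts were present throughout: the mean of 19 markers was 7.91 to 9.49 in KO arrays, against 8.77 to 10.20 in WT arrays, and all 19 were lower in KO (11 by the study's rule, given below). The 17 macrophage markers, with a mean of 7.56 to 10.06 in KO arrays and 7.01 to 8.35 in WT arrays, were all higher in KO (14 by the rule). Exact permutation p-values for these means were 0.807 for LSEC, 0.0498 for hepatocytes and 0.022 for macrophages, unadjusted over 8 marker lists. The lists were chosen with earlier results of these data known, so these counts and p-values describe the arrays and cannot serve as an independent test. In these bulk samples fewer cells of a type and less RNA per cell cannot be told apart. Array KO 2 had the highest macrophage mean and WT 5 the highest hepatocyte mean. Signal of intron control rows split the arrays, with 5.75 to 5.96 in KO 3, KO 4, WT 1 and WT 6 and 5.05 to 5.38 in the other 7, classes drawn after the values were seen and not a batch named by the labels.

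Hardly any fatty acid gene was called between the genotypes. Differences below are KO minus WT on the log2 scale, with the standard error of a limma fit over all clusters, and the study's rule asked for 1.5-fold or more together with an unadjusted p no higher than 0.05. By that rule 1 of 38 genes was lower in KO (Slc27a5) and 0 were higher, beside 0.356% of all clusters lower and 0.671% higher (1.03% in either direction). At an unadjusted limma p of 0.05 alone, 2 of 38 genes (5.26%) were called, beside 6.39% of all clusters, so the share lay near the background. One was lower (Slc27a5), beside 3.78% of clusters, and 1 higher (Hadhb), beside 2.61%. No gene passed an adjusted p of 0.05 in limma, and neither did any of the 22206 clusters (0.0%), the smallest adjusted p being 0.764. Differences were above 0 for 17 genes, beside 45.9% of all clusters, and below 0 for 21. Their median was -0.01, against -0.02 over all clusters, and 25 were smaller than 0.15 in size. For 25 of 38 genes the 95% interval of the difference stayed inside a fold of 1.5 in either direction, as it did for 75.8% of all clusters. For the other 13 genes, among them Fabp1, Scd1, Slc27a2, Lpl and Acsl4, the interval reached past it. The KO and WT arrays overlapped for every one of the 38 genes, while 0.473% of all clusters had no overlap. Without KO 1, KO 3, KO 4, KO 5, WT 1, WT 4 or WT 5 the count of lower genes was 0. It was 3 without KO 2 and 2 without WT 3.

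**Figure D1:**
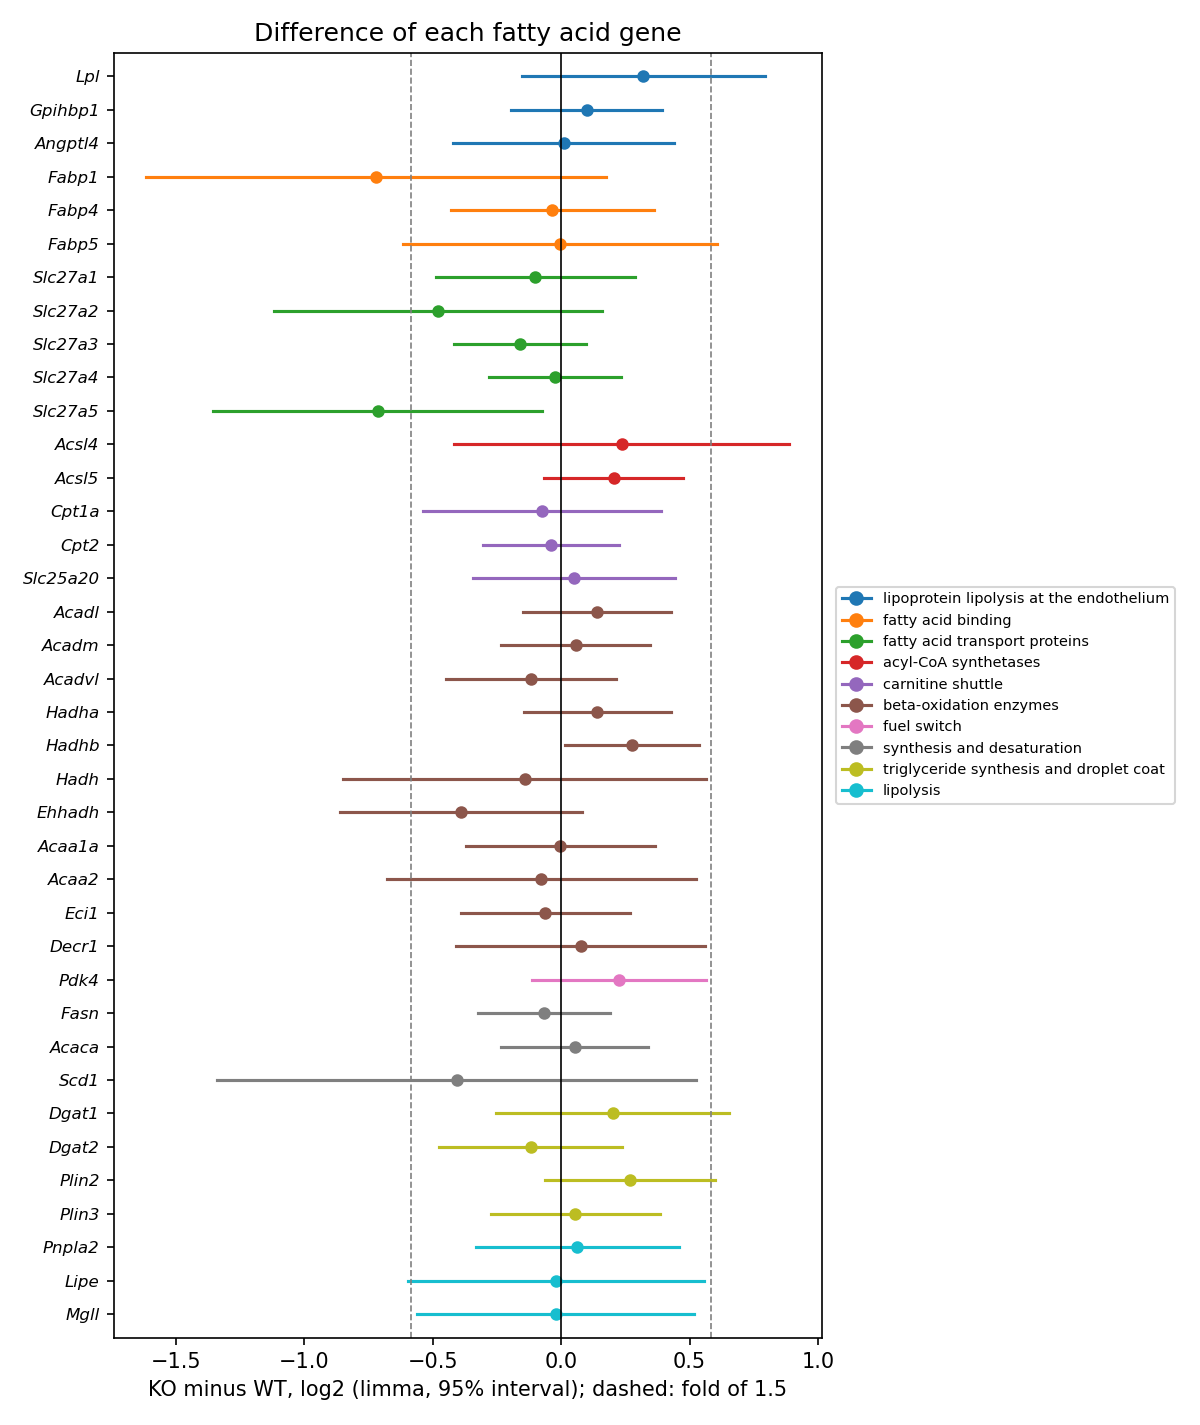
Difference of each of the 38 fatty acid genes, KO minus WT on the log2 scale (horizontal axis), grouped by role. Points are limma estimates and bars their 95% intervals; dashed lines mark a fold of 1.5. Fabp1 (-0.72) and Slc27a5 (-0.71) lie farthest to the left and Lpl (0.32) farthest to the right.

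At the capillary surface no gene passed the test. Lpl, lipoprotein lipase, read 8.24, 8.96, 7.92, 8.55 and 8.59 in KO arrays 1 to 5, against a lowest, median and highest of 7.71, 8.03 and 8.87 in WT arrays. The groups overlapped widely, with KO 2 and WT 5 the highest of their genotypes, and the difference was 0.32 (SE 0.22, limma adjusted p = 0.784, exact permutation p = 0.210). Gpihbp1, its endothelial anchor, averaged 12.23 ± 0.23 in KO (SD, n = 5) and 12.13 ± 0.21 in WT (SD, n = 6). Angptl4, a secreted inhibitor of the lipase, averaged 8.16 ± 0.37 in KO and 8.15 ± 0.36 in WT. The interval of the Gpihbp1 difference ran from -0.19 to 0.39 and that of Angptl4 from -0.42 to 0.44.

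None of the 3 fatty acid binding proteins passed the test. Fabp1, the liver-type fatty acid binding protein, read 5.62, 6.85, 6.03, 5.17 and 4.84 in KO arrays 1 to 5, against a lowest, median and highest of 5.67, 6.22 and 7.91 in WT arrays. KO 2 was the one KO array above the WT mean, and KO 5 read below the array's antigenomic background, so the size of the difference is uncertain. It was -0.72 (SE 0.41, limma adjusted p = 0.764, exact permutation p = 0.177), with an interval from -1.61 to 0.17. Fabp4, the form known from adipocytes and capillary endothelium, averaged 11.32 ± 0.11 in KO (SD, n = 5) and 11.36 ± 0.43 in WT (SD, n = 6), a difference of -0.03 (SE 0.18). Fabp5, an epidermal form also made by endothelium and macrophages, differed by -0.004 (SE 0.28). Fabp1 minus Fabp4 within each array averaged -5.62 ± 0.73 in KO and -4.93 ± 0.77 in WT, and the exact permutation p for the difference of this gap was 0.165 (0.247 adjusted over 3 pairs chosen after the values were seen).

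All 5 fatty acid transport proteins of the list lay below 0, where 45.9% of all clusters lay above it, and Slc27a5 met the study's rule. Slc27a6, a family member outside the list, differed by 0.04 (SE 0.13). Slc27a5, which encodes a hepatocyte transporter and bile acid-CoA ligase, read 5.08, 6.68, 5.33, 4.85 and 5.31 in KO arrays 1 to 5. In WT arrays its lowest, median and highest levels were 5.58, 6.17 and 6.72. KO 2 alone lay among the WT arrays, close to their highest, and the other KO arrays were all below the lowest WT array. The difference was -0.71 (SE 0.30), a 1.64-fold lower level, with a limma p of 0.0315 (adjusted p = 0.764) and an exact permutation p of 0.0693. Its levels in KO 1 (5.08), KO 4 (4.85) and KO 5 (5.31) lay close to the antigenomic background of these arrays (4.91, 4.73 and 4.96). The size of the difference is therefore uncertain. Without KO 1, KO 3, KO 4, KO 5, WT 1, WT 4 or WT 5 the gene no longer met the rule, with differences from -0.56 (without KO 4) to -0.69 (without WT 1). The hepatocyte marker mean was 8.50 ± 0.60 in KO and 9.30 ± 0.55 in WT, and with it as a covariate the Slc27a5 difference was 0.03. With the macrophage mean as the covariate it was -1.44, and with both means -0.40.

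Its relatives differed by less. Slc27a2, a very long chain acyl-CoA synthetase of liver and kidney, averaged 5.57 ± 0.61 in KO (SD, n = 5) and 6.05 ± 0.53 in WT (SD, n = 6), a difference of -0.48 (SE 0.30). It was close to the antigenomic background in KO 5 (5.16 against 4.96), so this size is uncertain too. Slc27a2 was also not far above that background in WT 3 (5.30 against 4.90), KO 1 (5.46 against 4.91), KO 3 (5.33 against 4.88) and KO 4 (5.25 against 4.73). It met the rule without KO 2 (-0.75) or without WT 3 (-0.63), and its difference was 0.25 with the hepatocyte mean as a covariate, -1.15 with the macrophage mean and 0.05 with both. Slc27a1, known from muscle and fat, differed by -0.10 (SE 0.18), Slc27a3 by -0.16 (SE 0.12) and Slc27a4, the form of broad expression, by -0.02 (SE 0.12). All 5 KO arrays lay below the WT mean of Slc27a3 and none of these 3 met the rule. The level of Slc27a5 relative to Slc27a4 within each array averaged -1.91 ± 0.62 in KO and -1.22 ± 0.39 in WT. That contrast, chosen after the values were seen, had an exact permutation p of 0.0498, or 0.149 adjusted over 3 pairs.

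Both acyl-CoA synthetases measured lay above 0 without passing the rule. Acsl5, an isoform of mitochondria and endoplasmic reticulum, read 10.46, 10.60, 10.41, 10.59 and 10.27 in KO arrays 1 to 5, against a lowest, median and highest of 9.84, 10.30 and 10.49 in WT arrays. Each KO array was above the WT mean, but the groups overlapped and the difference was 0.20 (SE 0.13, exact permutation p = 0.104). Acsl4, which prefers arachidonic acid, differed by 0.24 (SE 0.30), and its spread between arrays was 0.48 in KO and 0.65 in WT (SD).

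Among the 3 genes of the carnitine shuttle the largest difference was -0.07. Cpt1a, the gate of mitochondrial fatty acid entry, read 9.03, 9.47, 8.48, 8.23 and 8.46 in KO arrays 1 to 5, against a lowest, median and highest of 8.43, 8.87 and 9.16 in WT arrays. KO 2 was the highest and KO 4 the lowest of all 11 arrays, so the KO arrays spanned the whole WT range, and the exact permutation p was 0.762. Cpt2, the inner membrane transferase, averaged 6.90 ± 0.24 in KO (SD, n = 5) and 6.94 ± 0.13 in WT (SD, n = 6). Slc25a20, the carnitine-acylcarnitine carrier, averaged 7.86 ± 0.46 in KO and 7.81 ± 0.15 in WT.

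Of 11 beta-oxidation enzymes 5 lay above 0 and 6 below, and none met the study's rule. Hadhb encodes the thiolase subunit of the mitochondrial trifunctional protein, and Hadha the subunit with the hydratase and dehydrogenase activities. Hadhb read 10.21, 10.14, 10.14, 10.03 and 10.04 in KO arrays 1 to 5, against a lowest, median and highest of 9.43, 9.86 and 10.07 in WT arrays. The KO arrays were close to each other and all above the WT mean, with 2 WT arrays inside their range. The difference of 0.28 (SE 0.12) had a limma p of 0.041 (adjusted p = 0.764) and an exact permutation p of 0.0303, and its interval of 0.01 to 0.54 stayed under a fold of 1.5. It was 0.03 within the 4 arrays of high intron control signal and 0.40 within the other 7. Hadha differed by 0.14 (SE 0.13), and Hadhb minus Hadha within each array differed by 0.13 (exact permutation p = 0.530).

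Hadha and Hadhb lie head to head, with RefSeq starts 273 bases apart, and the stretch shared by their upstream windows is shown because both subunits of the enzyme start at its flanks. It holds 228 bases on the plus strand at chr5:30155003-30155230 (RefSeq, GRCm38.p6), with a GC box (GGGCGG on either strand) in capitals.
Hadha and Hadhb: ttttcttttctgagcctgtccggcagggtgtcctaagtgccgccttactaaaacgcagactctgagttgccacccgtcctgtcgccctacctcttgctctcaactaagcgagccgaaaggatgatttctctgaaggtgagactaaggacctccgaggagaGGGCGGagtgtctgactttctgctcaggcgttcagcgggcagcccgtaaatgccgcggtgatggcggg
In WT 2 Hadha was at 10.22, the highest of its genotype, while Hadhb was at 9.43, the lowest.

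The other oxidation enzymes gave no call. Ehhadh, the peroxisomal bifunctional enzyme, averaged 6.32 ± 0.23 in KO (SD, n = 5) and 6.71 ± 0.50 in WT (SD, n = 6). Its difference of -0.39 (SE 0.22) was the lowest of the 11, all 5 KO arrays were below the WT mean, and as a covariate the hepatocyte mean gave -0.01, the macrophage mean -0.60 and both together 0.51. The acyl-CoA dehydrogenases of long, medium and very long chains, Acadl, Acadm and Acadvl, differed by 0.14 (SE 0.13), 0.06 (SE 0.13) and -0.12 (SE 0.15). Hadh, the short chain hydroxyacyl-CoA dehydrogenase, differed by -0.14 (SE 0.33) and ranged from 7.18 in KO 4 to 9.15 in KO 2. Acaa2, the mitochondrial thiolase, was likewise lowest in KO 4 (8.33) and highest in KO 2, and its difference was -0.08 (SE 0.28). The peroxisomal thiolase Acaa1a (-0.004, SE 0.17), the isomerase Eci1 (-0.06, SE 0.15) and the dienoyl-CoA reductase Decr1 (0.08, SE 0.23) completed the set. Pdk4, the kinase that shuts pyruvate dehydrogenase when fatty acids are burned, read 11.57, 11.36, 11.87, 12.04 and 11.82 in KO arrays 1 to 5. The lowest, median and highest WT levels were 11.16, 11.53 and 11.87. KO 4 stood above every WT array and KO 2 was the lowest KO array, and the difference was 0.23 (SE 0.16, exact permutation p = 0.199).

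No gene of fatty acid synthesis passed the test. Scd1, the delta-9 desaturase, read 8.56, 10.40, 9.29, 8.22 and 9.30 in KO arrays 1 to 5, against a lowest, median and highest of 8.80, 9.34 and 11.20 in WT arrays. Single arrays stood high in each genotype, KO 2 and WT 5. The difference was -0.41 (SE 0.43, exact permutation p = 0.459), with an interval from -1.34 to 0.53. Without KO 2 it was -0.72 and without WT 5 -0.08. Fasn, fatty acid synthase, differed by -0.07 (SE 0.12). Acaca, which makes its malonyl-CoA, averaged 7.15 ± 0.07 in KO (SD, n = 5) and 7.10 ± 0.28 in WT (SD, n = 6).

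Droplet genes gave no call either. Plin2, the droplet coat protein that rises with lipid load in most cells, read 10.92, 11.60, 11.45, 11.20 and 11.48 in KO arrays 1 to 5, against a lowest, median and highest of 10.78, 11.06 and 11.49 in WT arrays. Of the KO arrays 4 were above the WT mean and KO 1 was below it. The difference was 0.27 (SE 0.15, exact permutation p = 0.121), and its interval from -0.06 to 0.60 just reached a fold of 1.5. Plin3, a coat protein of nascent droplets, differed by 0.06 (SE 0.15). The final enzymes of triglyceride synthesis, Dgat1 and Dgat2, differed by 0.20 (SE 0.21) and -0.12 (SE 0.17). Of the lipases, Pnpla2 (adipose triglyceride lipase) read 11.03, 11.29, 10.52, 10.61 and 10.77 in KO arrays 1 to 5, against a lowest, median and highest of 10.45, 10.66 and 11.21 in WT arrays. The ranges nearly coincided, and the difference was 0.06 (SE 0.18, exact permutation p = 0.751). Lipe, hormone-sensitive lipase, and Mgll, monoglyceride lipase, each differed by -0.02 (SE 0.27 and 0.25).

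**Figure D2:**
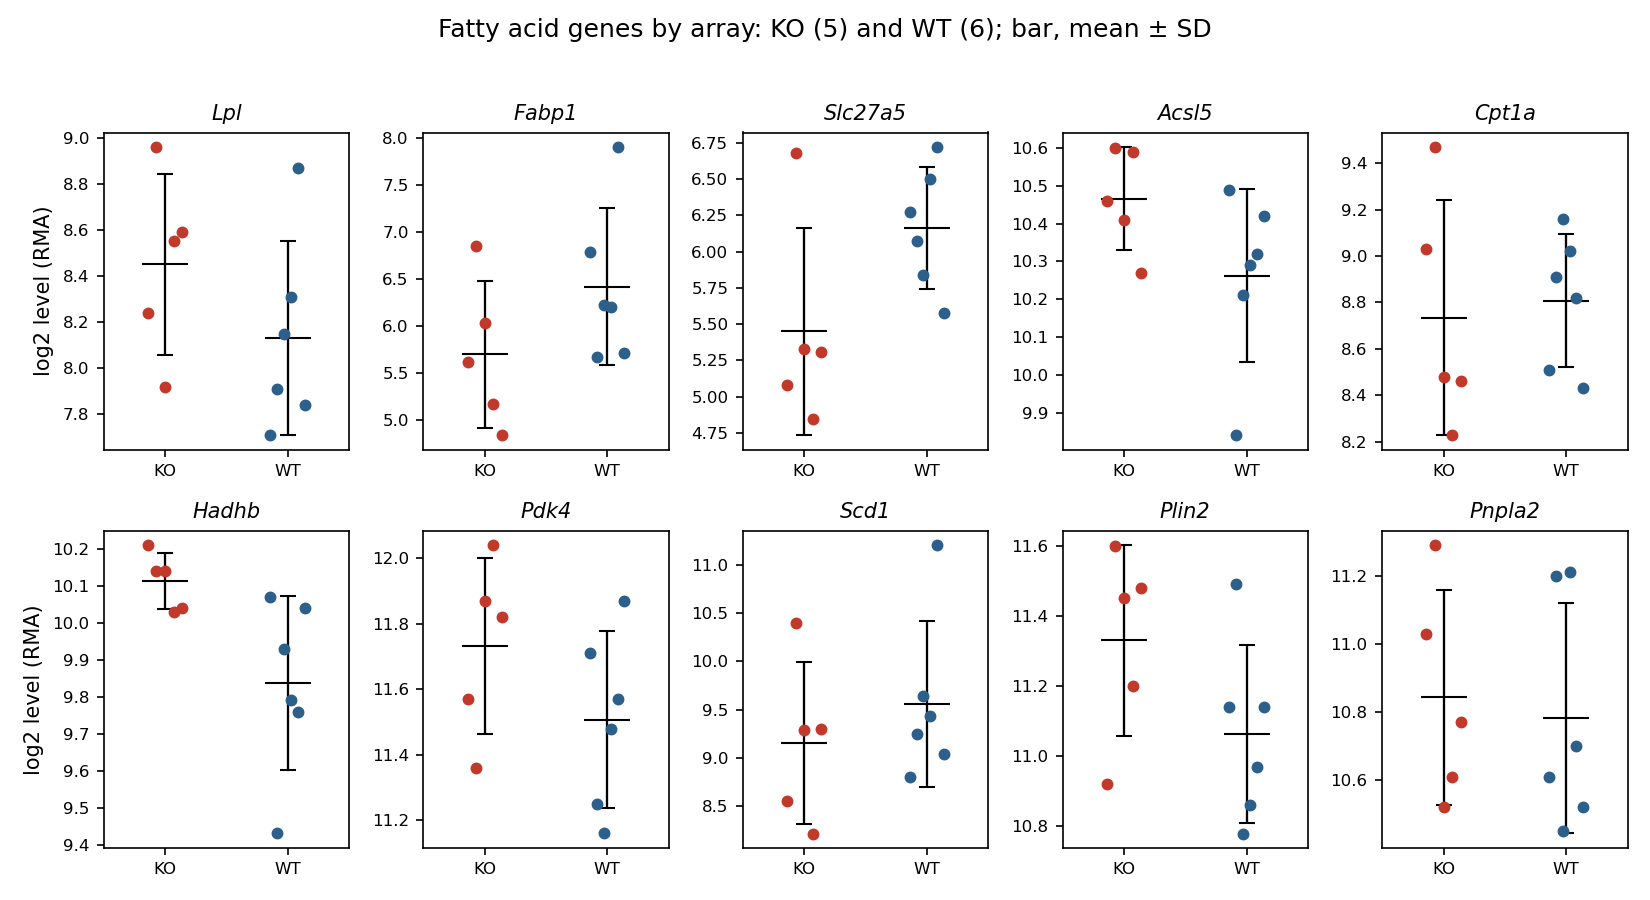
Log2 level (vertical axis, a separate range for each gene) of the fatty acid gene of smallest p in each role, for 5 KO and 6 WT arrays. Points are arrays and bars the mean ± SD. For Slc27a5, 4 KO arrays lie below all WT arrays and KO 2 (6.68) lies among them. The groups overlap for the other genes too.

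Arrays of 1 genotype differed among themselves. The median SD over arrays was 0.29 in KO and 0.29 in WT for the 38 genes, against 0.23 and 0.24 over all clusters. KO 2 was the highest KO array for 28 of 38 genes, beside 30.2% of all clusters, and KO 4 the lowest for 16, beside 20.7%. Among WT arrays, WT 6 was the lowest for 14 of 38 genes, beside 20.4% of clusters. KO 3 and KO 4 were both under the median of the other KO arrays for 24 genes, beside 37.1% of clusters, and WT 1 and WT 6 under that of the other WT arrays for 26, beside 48.7%.

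The 4 arrays of high intron control signal stood apart in the same way in both genotypes. A total of 27 of 38 genes were lower in them within KO and within WT, beside 41.5% of all clusters, and 6 were higher in both, beside 30.3%. The median gap, high minus low signal arrays, was -0.31 in KO and -0.34 in WT, against -0.01 and -0.08 over all clusters. Hadh had a gap of -1.05 in KO and -0.97 in WT. Acaa2 had gaps of -0.94 in KO and -0.78 in WT, Fabp5 of -0.84 and -0.96, and Mgll of -0.68 and -0.82. Acsl4 (0.66 in KO and 0.94 in WT) and Pdk4 (0.37 and 0.43) went the other way. These gaps rest on 2 against 3 KO arrays and 2 against 4 WT arrays and carry no test, and the part that RNA quality has in them was not tested. Both array classes held both genotypes, and the Slc27a5 difference was -0.84 within the high signal arrays and -0.59 within the others.

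**Figure D3:**
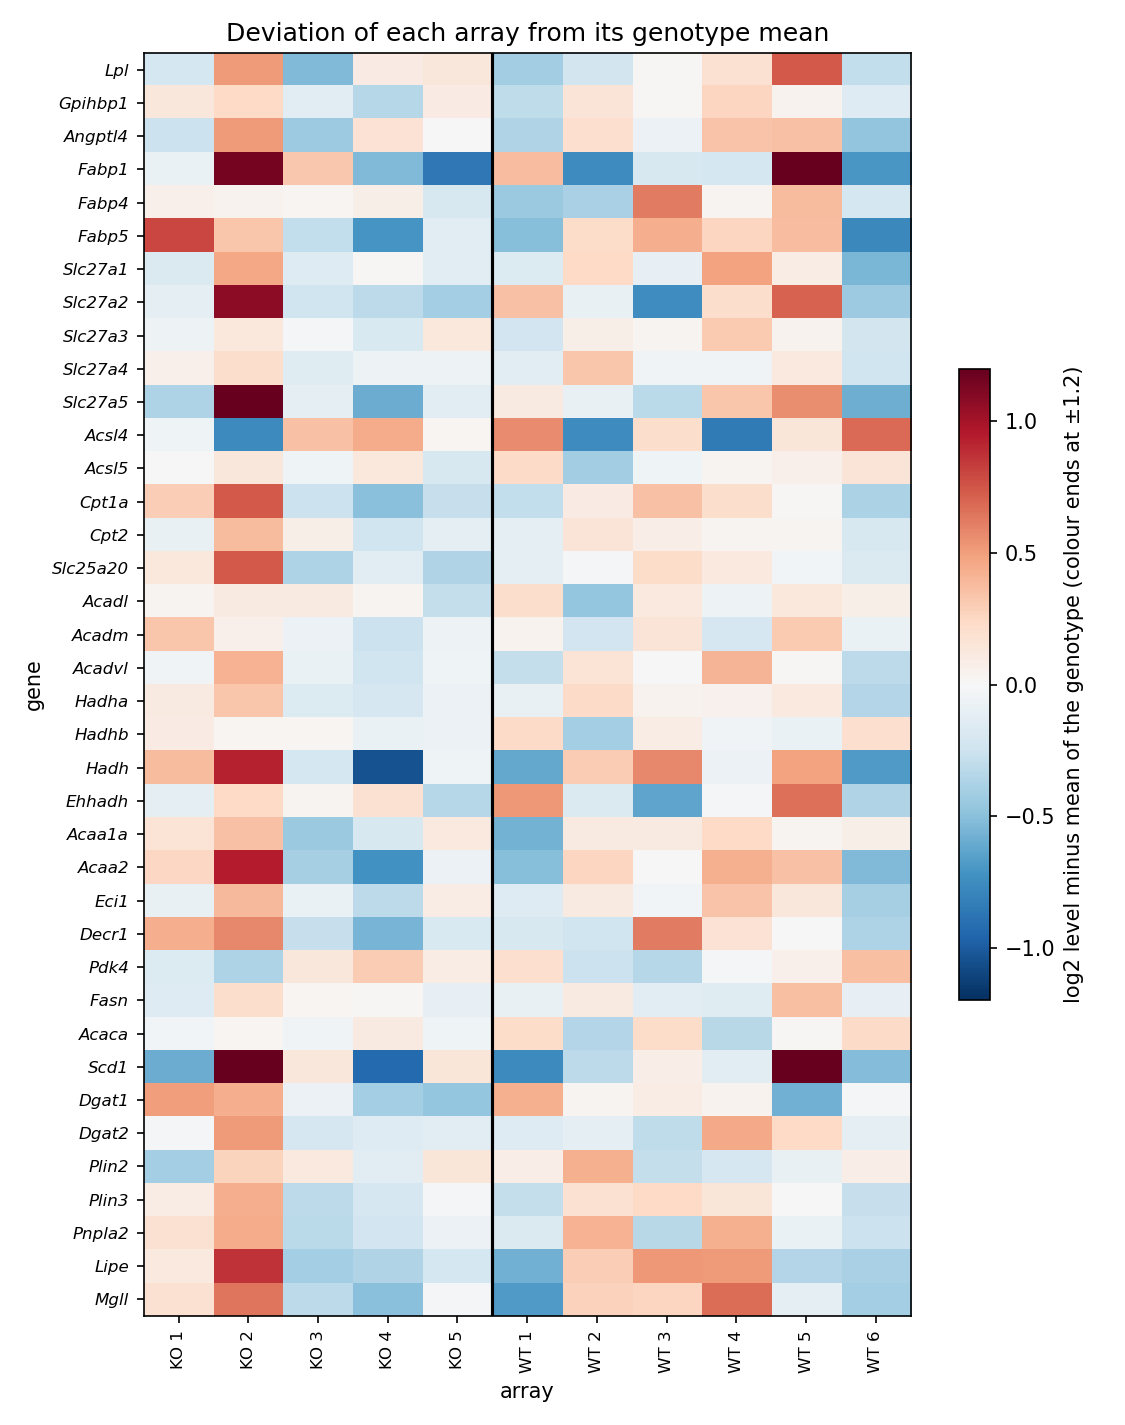
Deviation of each array (columns, KO left of the line and WT right) from the mean of its genotype for the 38 fatty acid genes (rows), on the log2 scale, with red above and blue below. KO 2 is the highest KO array for 28 genes, and KO 3, KO 4, WT 1 and WT 6 are mostly blue for Hadh, Acaa2, Fabp5 and Mgll and red for Acsl4 and Pdk4.

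Levels of the list were set against marker means from array to array. After the mean of each genotype was subtracted, all 38 genes were correlated over the 11 arrays with the means of the hepatocyte, macrophage, stellate and LSEC markers, 152 relations in all, with exact permutation within genotypes. These relations were run for the 38 genes alone, so the share of all clusters that would pass is not known. The median r was 0.46 with the hepatocyte, stellate and LSEC means and 0.62 with the macrophage mean. The hepatocyte mean was followed by Slc27a5 (Pearson r = 0.934, permutation p = 9.3e-05, adjusted 0.0141; Spearman rho = 0.927, permutation p = 0.00024) and Slc27a2 (r = 0.922, permutation p = 0.00053, adjusted 0.0202; rho = 0.891, permutation p = 0.00091). Fabp1 gave r = 0.895 (permutation p = 0.0014, adjusted 0.0344) and rho = 0.736 (permutation p = 0.021), the rho missing the adjusted threshold at 0.0953. These 3 are the liver forms of their families, and no other gene of the list passed with the hepatocyte mean, though r was above 0 for 35 of 38. With KO 4 and WT 5 left out, whose hepatocyte means lay farthest from the median of all 11 arrays, r was 0.943, 0.930 and 0.823. KO 2, which lay farthest from the mean of its genotype (9.49 against 8.50), stayed in, and r without it was not tested. Within the 7 arrays of low intron control signal, KO 2 among them, r was 0.914, 0.961 and 0.911. Dgat2 (r = 0.820, permutation p = 0.013, adjusted 0.0766; rho = 0.642, permutation p = 0.051) and Scd1 (r = 0.804, permutation p = 0.0097, adjusted 0.0705; rho = 0.536, permutation p = 0.122) came close to passing. Their r was 0.849 and 0.576 without KO 4 and WT 5, and 0.877 and 0.816 within the 7 arrays. With the hepatocyte mean as a covariate the differences of the 3 liver forms turned, to 0.03 for Slc27a5, 0.25 for Slc27a2 and 0.30 for Fabp1. With the macrophage mean instead they were -1.44, -1.15 and -1.43, and with both means -0.40, 0.05 and 1.03. Slc27a5 and Slc27a2 also ran with the macrophage mean (r = 0.846 and 0.779, permutation p = 0.0072 and 0.013; rho = 0.664 and 0.536, permutation p = 0.037 and 0.097), where they missed the adjusted threshold (0.0609 and 0.0766). Within the 7 arrays of low intron control signal r was 0.9754 and 0.947, without KO 2 and KO 5 it was 0.601 and 0.654, and whether the relations to the hepatocyte and macrophage means differ was not tested.

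The upstream stretches of Fabp1 and Slc27a2 are shown as the liver forms of the list that have a RefSeq window, 250 bases up to the start on the plus strand, at chr6:71199629-71199878 and chr2:126552774-126553023 (GRCm38.p6). Capitals mark TATAAA, the half-site AGGTCA and the GC box GGGCGG on either strand.
Fabp1: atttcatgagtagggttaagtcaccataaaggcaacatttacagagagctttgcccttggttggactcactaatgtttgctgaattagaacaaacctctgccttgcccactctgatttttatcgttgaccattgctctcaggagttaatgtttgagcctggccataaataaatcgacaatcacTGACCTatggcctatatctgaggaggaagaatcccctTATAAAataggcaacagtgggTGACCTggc
Slc27a2: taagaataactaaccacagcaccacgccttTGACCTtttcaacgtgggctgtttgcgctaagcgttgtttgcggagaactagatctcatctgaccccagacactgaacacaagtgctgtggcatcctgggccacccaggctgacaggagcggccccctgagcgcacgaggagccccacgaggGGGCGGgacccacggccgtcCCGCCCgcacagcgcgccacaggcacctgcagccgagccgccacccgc
Counted in bases from its start, Fabp1 held TATAAA at -30 and half-sites in the complement (TGACCT) at -67 and -9, while Slc27a2 held GC boxes and a half-site farther up. Over the 250 upstream bases, 12.368% of all 32851 windows held TATAAA (or TTTATA), 14.024% the half-site and 32.742% the GC box (or CCGCCC). Of the 29 listed genes with a window, Fabp1 was the only one with TATAAA, 6 had the half-site and 21 the GC box. Counted by window, as the shares are, 1, 6 and 22 of the 34 windows of these genes held them. A match describes letters in a window and shows no binding.

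With the LSEC mean, which ranged from 11.92 to 12.29, 7 genes passed by r and 9 by rho, counts with no share over all clusters to set beside them. The 7 that passed by r included 2 of 11 beta-oxidation enzymes, 2 of 3 genes of the carnitine shuttle and 1 of 3 lipases. Cpt1a (r = 0.885, permutation p = 0.00022, adjusted 0.0167; rho = 0.955, permutation p = 0.00019), Decr1 (r = 0.899, permutation p = 0.00042, adjusted 0.0202; rho = 0.864, permutation p = 0.0029) and Hadh (r = 0.871, permutation p = 0.00097, adjusted 0.0296; rho = 0.873, permutation p = 0.0018) rose with it. Plin3, Lipe and Slc25a20 did so too (r = 0.834, 0.826 and 0.727, permutation p = 0.0027, 0.0027 and 0.0045; rho = 0.827, 0.855 and 0.800, permutation p = 0.0038, 0.0025 and 0.0051; adjusted p for r from 0.0344 to 0.0494). Pdk4 ran against it (r = -0.826, permutation p = 0.0043, adjusted 0.0494; rho = -0.891, permutation p = 0.0015). KO 2 and WT 3, whose LSEC means lay farthest from the median of all 11 arrays, were then left out. WT 1, which had the lowest LSEC mean (11.92), stayed in. Without KO 2 and WT 3, r was 0.843 for Cpt1a, 0.768 for Decr1, 0.817 for Hadh and -0.640 for Pdk4. For Slc25a20 it was 0.525, so that relation rests in good part on these arrays. Within the 7 arrays of low intron control signal r was 0.834 for Cpt1a, 0.966 for Decr1, 0.741 for Hadh and -0.700 for Pdk4. For Plin3, Lipe and Slc25a20 it was 0.722, 0.675 and 0.817. Among arrays of high signal, WT 1 (11.92) and WT 6 (12.04) had the lowest LSEC means of WT and KO 4 (11.94) that of KO. KO 3 of that class and KO 5 of the other were both at 12.04. The part of this split in the relations over all 11 arrays was not tested.

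Lpl followed both the macrophage mean (r = 0.835, permutation p = 0.0018, adjusted 0.0344; rho = 0.818, permutation p = 0.0038) and the stellate mean (r = 0.858, permutation p = 0.0021, adjusted 0.0344; rho = 0.800, permutation p = 0.0084, adjusted 0.0561). Acaa2, which had r = 0.767 with the LSEC mean (permutation p = 0.0084, adjusted 0.0637; rho = 0.773, permutation p = 0.010), passed with the macrophage mean (r = 0.860, permutation p = 0.0027, adjusted 0.0344; rho = 0.873, permutation p = 0.0016) and Angptl4 with the stellate mean (r = 0.860, permutation p = 0.0025, adjusted 0.0344; rho = 0.873, permutation p = 0.0021). With the most distant arrays left out (KO 2 and KO 5 for macrophages, KO 2 and WT 1 for stellate cells), r was 0.821 for Lpl with macrophages, 0.773 for Lpl with stellate cells, 0.745 for Acaa2 and 0.771 for Angptl4. Within the 7 arrays of low intron control signal these values were 0.872, 0.700, 0.830 and 0.713. Angptl4 also ran with the macrophage mean (r = 0.773, permutation p = 0.0068, adjusted 0.0609; rho = 0.800, permutation p = 0.0061, adjusted 0.0496). That r was 0.674 without KO 2 and KO 5 and 0.924 within the 7 arrays. By rho, 8 of 38 genes passed with the macrophage mean, Angptl4 among them, against 2 by r. The marker means themselves share arrays such as KO 2, which was high in the hepatocyte, macrophage, stellate and LSEC means among KO arrays, so the relations are not independent of each other. With the macrophage mean as a covariate the Lpl difference turned to -0.20, and with the hepatocyte mean it was 0.68 and met the study's rule. With both means it was -0.29.

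**Figure D4:**
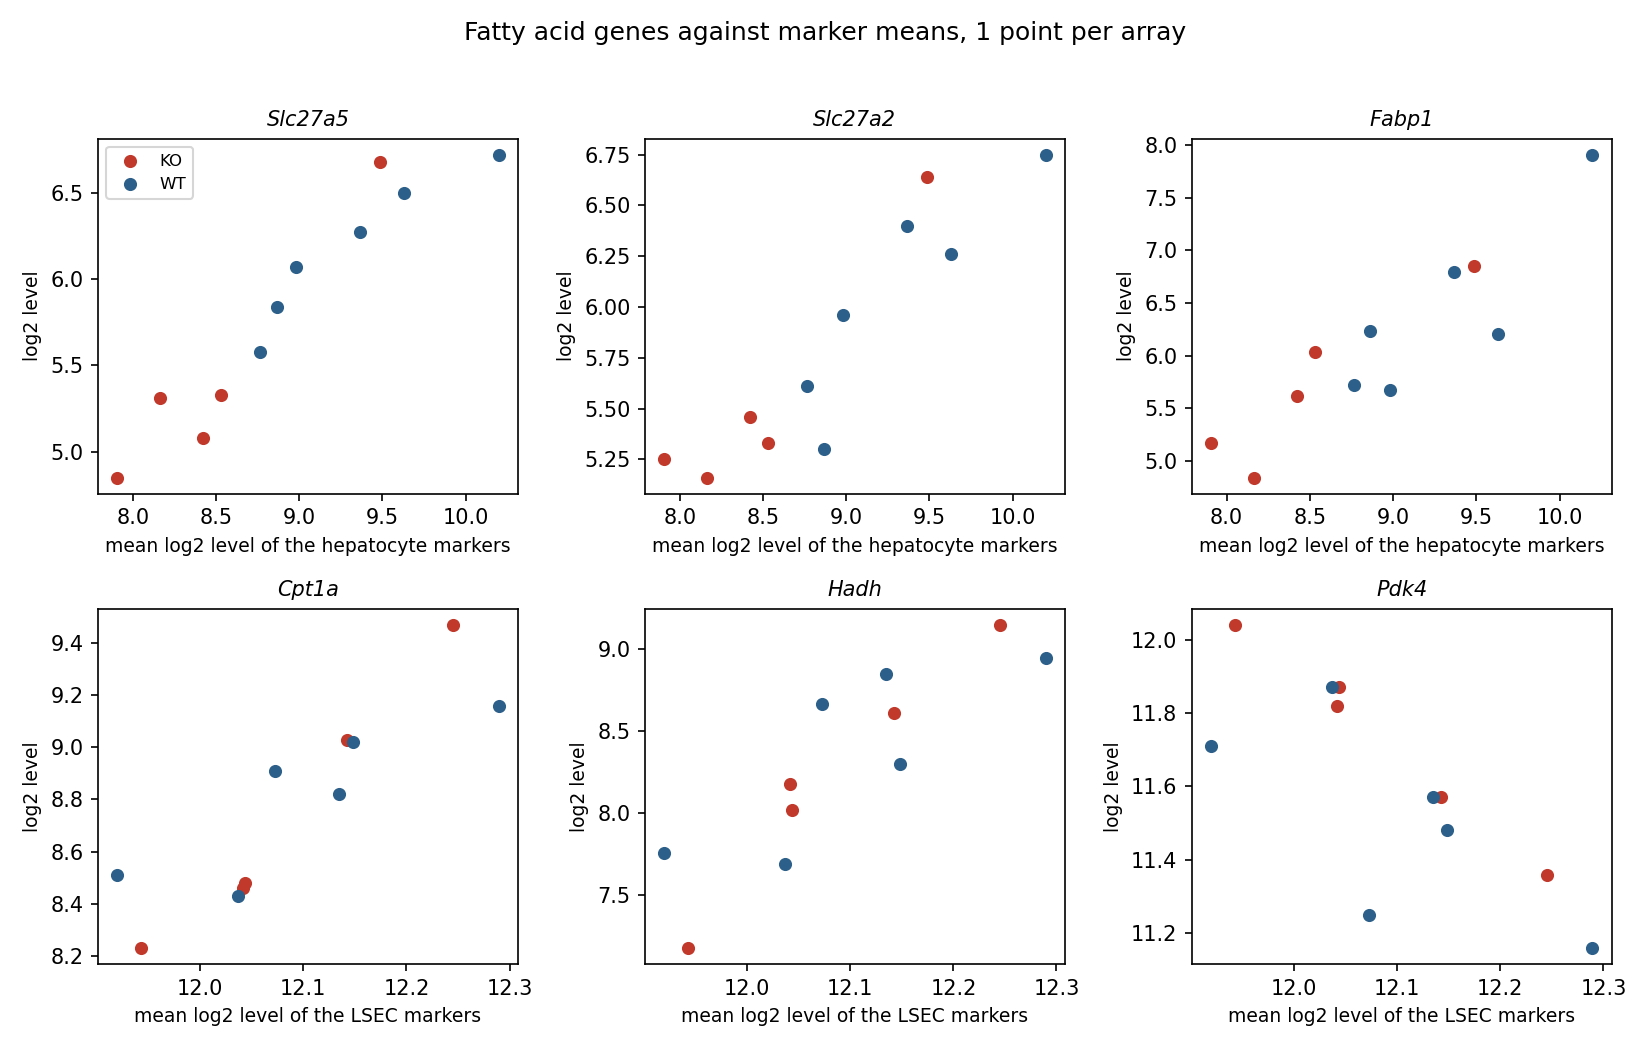
Log2 level of 6 fatty acid genes (vertical axes) against the mean log2 level of 19 hepatocyte markers (upper row) or 18 LSEC markers (lower row), 1 point per array, KO red and WT blue. Slc27a5, Slc27a2 and Fabp1 rise with the hepatocyte mean and Cpt1a and Hadh rise and Pdk4 falls with the LSEC mean.

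Further genes of the pathway were read from a list of 96, of which 87 had a cluster. By the study's rule 2 of 87 were higher in KO and 0 lower, beside 0.671% and 0.356% of all clusters. At a limma p of 0.05 without the fold, 4 were higher and 8 lower (13.8% of 87, beside 6.39% of clusters), and none passed an adjusted p of 0.05. The list was chosen with earlier results of these data known, so its share cannot serve as a test of the pathway. The median difference was -0.05.

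Fabp7, a binding protein of brain that mouse Kupffer cells also make, was 2.08-fold higher. It read 8.23, 9.58, 7.71, 7.58 and 8.49 in KO arrays 1 to 5, against a lowest, median and highest of 6.78, 7.09 and 8.64 in WT arrays. All KO arrays were above the WT mean and WT 5 alone reached into their range (1.06, SE 0.38, limma adjusted p = 0.764, exact permutation p = 0.0433). The macrophage marker mean was 8.55 ± 0.96 in KO and 7.42 ± 0.52 in WT, and with it as a covariate the difference was 0.09. With the hepatocyte mean as the covariate it was 1.87, and with both means 0.57.

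Insig1, which holds the SREBP lipogenic factors in the endoplasmic reticulum, read 9.26, 9.55, 9.58, 9.79 and 9.67 in KO arrays 1 to 5, against a lowest, median and highest of 8.61, 9.02 and 9.27 in WT arrays. The ranges touched only at their edges. The difference of 0.59 (SE 0.15, exact permutation p = 0.0065, limma adjusted p = 0.764) lay at the threshold of a fold of 1.5. It fell under that fold without KO 4 (0.53), KO 5 (0.56), WT 2 (0.56), WT 3 (0.55) or WT 4 (0.51). With the macrophage mean as a covariate it was 0.63 and stayed called, with the hepatocyte mean it was 0.56, and with both it was 0.63 and no longer called.

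The other 10 genes at an unadjusted p of 0.05 were named after their values were seen. Hilpda, an inhibitor of Pnpla2 on droplets, differed by 0.45 (SE 0.15) and the elongation enzyme Hsd17b12 by 0.29 (SE 0.12), each with all 5 KO arrays above the WT mean. Acox2, the peroxisomal oxidase of branched chains and bile acid precursors, had a difference of -0.49 (SE 0.15, exact permutation p = 0.0043). It read between 5.60 and 6.33 in KO arrays and between 6.33 and 6.85 in WT arrays, so the groups met at a single value. The droplet proteins Cideb (-0.53, SE 0.20), Plin4 (-0.31, SE 0.13) and Plin5 (-0.36, SE 0.16) stayed under a fold of 1.5. So did the elongase Elovl2 (-0.48, SE 0.21), the lipase regulator Angptl8 (-0.49, SE 0.22) and the medium chain acyl-CoA synthetase Acsm1 (-0.46, SE 0.21). Prkaa2, a catalytic subunit of AMP-activated kinase, differed by -0.42 (SE 0.12) but was above the antigenomic background in only 1 of 5 KO arrays and 5 of 6 WT arrays. With the hepatocyte and macrophage means both as covariates Elovl2 (0.53), Acsm1 (0.59) and Hilpda (-0.02) turned, while with the hepatocyte mean alone they were -0.13, -0.17 and 0.58 and with the macrophage mean alone -0.63, -0.55 and 0.20.

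**Figure D5:**
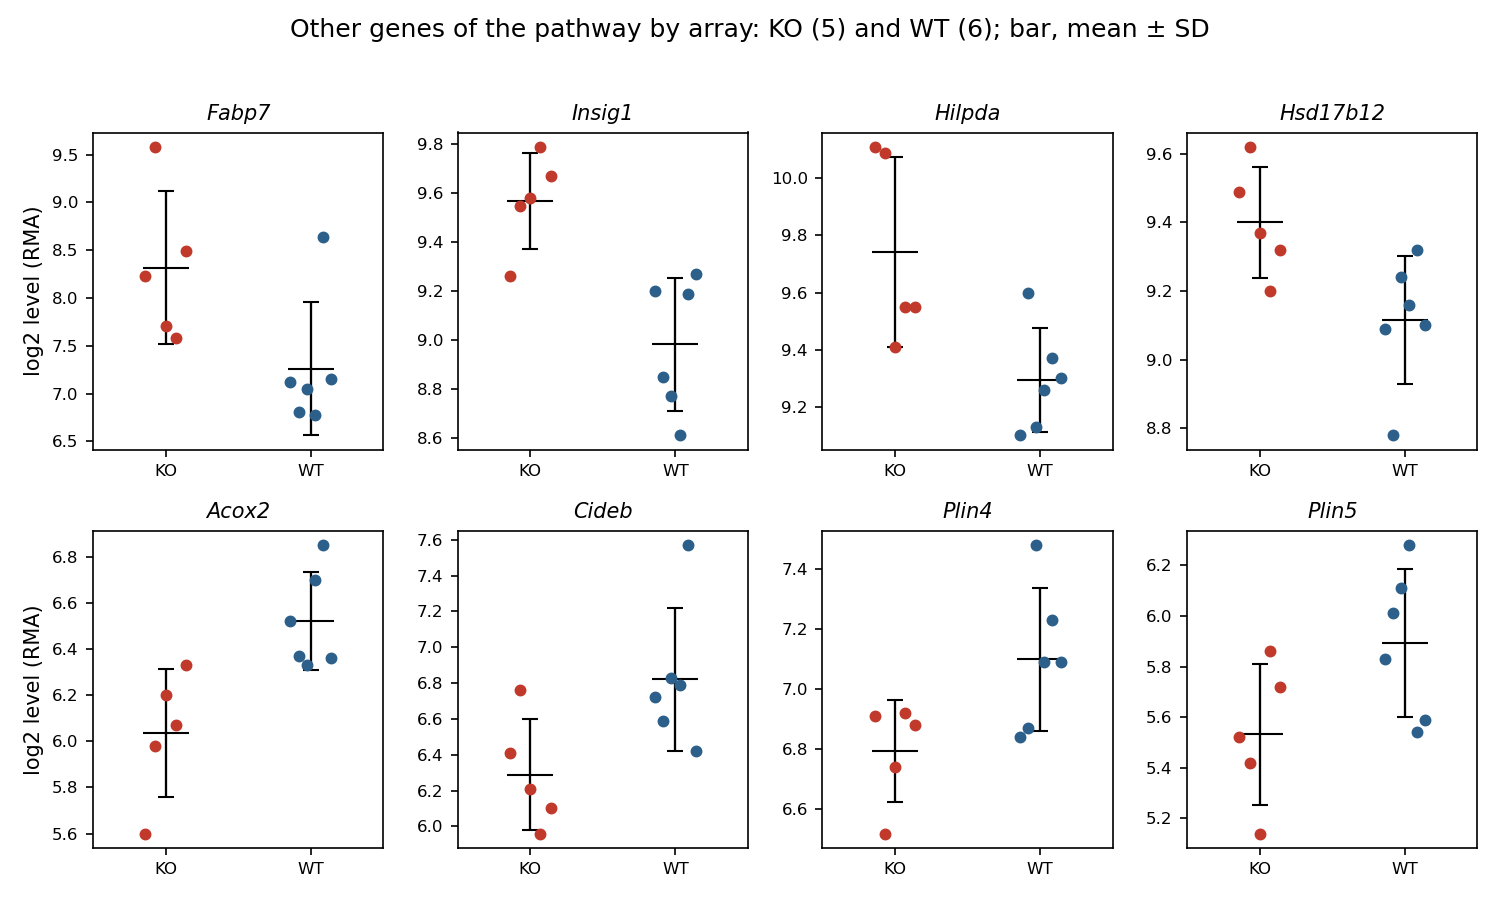
Log2 level (vertical axis, a separate range for each gene) of 8 further genes of the pathway in 5 KO and 6 WT arrays, with mean ± SD. Fabp7 and Insig1 met the study's rule; the other 6 stayed under a fold of 1.5, with KO means above WT for Hilpda and Hsd17b12 and below it for Acox2, Cideb, Plin4 and Plin5.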

How the data were processed

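RNA was measured on Mouse Clariom S arrays. Trizol extraction of RNA preceded biotin labelling of cDNA, per the labels' protocols. The submitters' processing notes name RMA and Affymetrix Expression Console. Their versions and the build are not given in the sources used here. The deposited values were log2 levels, read from their range (2.15 to 13.79). RMA equalizes the arrays' distributions, so a change shared by most genes is removed and weak signals are compressed. Scanner files and scan dates were not used here. Precision is limited by how many arrays there were.

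The 6640 control rows were left out. In the platform annotation 19572 clusters had 1 symbol, 0 had several and 2634 had none. Of 55 symbols with several clusters the brightest over all arrays was used, and each measured gene of the list had 1 cluster. Arrays were grouped by title and fitted with limma 3.58.1 in R 4.3.3 with genotype as the only term. Adjusted p-values are Benjamini-Hochberg values over the whole set of 22206 clusters, and the fit was first tested on simulated data. Two-sided exact permutation tests ran over all 462 arrangements of the arrays, and relations to marker means over 86400 arrangements within genotypes (Python 3.11.15). The genes and lists were chosen with earlier results of these data known. Array values were given for genes that met the study's rule and, in each role, the gene of smallest p. Of the other 96 pathway genes 87 had a cluster, the others were not analysed here, and those that met the rule were named. Every column was matched to an array by its label. Alternatives covered normalization, array weights, variance model, replicate block, marker means as covariates, a filter on dim clusters, thresholds and each array left out. The intron control mean as a covariate and leaving out KO 2 with WT 5 were chosen after seeing the data. Same-numbered arrays did not deviate together consistently (r from -0.32 to 0.39), so numbers were treated as names. Replicates were not stated to be separate animals. Sequences came from RefSeq windows of GRCm38.p6, and no other coordinates were used.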

Additional observations from a re-analysis of the deposited data

Results flagged for a closer look

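Each group of arrays was examined for a single array far from the rest, by a test whose threshold chance passes in a small share of groups (5% by its construction). Of 116 groups 11 held such an array. KO 2 was high for Slc27a2 (6.64, next KO array 5.46), Slc27a5 (6.68, next 5.33) and Dgat2 (7.75, next 7.22). KO 5 was low for Fabp4 (11.13, next 11.35) and Acadl (8.48, next 8.80). WT 5 was high for Scd1 (11.20, next WT array 9.64), Cideb (7.57, next 6.83) and Fabp7 (8.64, next 7.15). WT 1 was low for Acaa1a (7.23, next 7.83). The mean of the 3 adipocyte markers was high in KO 4 (5.23, next 4.98) and low in WT 1 (4.81, next 5.11), and 1 of those 3 markers was above the antigenomic background in all arrays. KO 2 also had the highest hepatocyte mean of the KO arrays (9.49) and WT 5 that of the WT arrays (10.20).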

How the results depend on the processing

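The count of fatty acid genes lower in KO was 1 and ranged from 0 to 3 when each array was left out; that of higher genes stayed at 0, the median difference ran from -0.11 to 0.08, and the count of all clusters called by the study rule ran from 171 to 314. Further pathway genes ran from 0 to 3 lower and 1 to 3 higher. The lower count was 3 with array weights, 3 without KO 2 and WT 5 (chosen after seeing the data), 0 at a p of 0.01 and 0 with the hepatocyte mean as a covariate, which gave 1 higher gene, 569 clusters and a median of 0.24. With the macrophage mean it was 7, with 1 higher gene, 1 gene (Slc27a5) at an adjusted p of 0.05, 1725 clusters, a median of -0.28 and 8 further genes lower. With both means 755 clusters were called, and 3 further genes lower and 0 higher. A lower fold threshold gave 831 clusters and 7 further genes lower, and a p of 0.01 gave 71 clusters and 1 further gene higher. Array weights gave 3 further genes lower, and repeated quantile normalization gave 1 lower and 1 higher. With the replicate number as a block 1 further gene was lower, Angptl4 (-0.086) and Acaa1a (0.01) turned, and no other call of the counts above changed. Of the 38 genes 6 kept their direction in all 23 alternatives. Differences turned in sign with the hepatocyte mean for Fabp1 (0.30), Fabp4 (0.0596), Fabp5 (0.34), Slc27a1 (0.17), Slc27a2 (0.25), Slc27a4 (0.079), Slc27a5 (0.031), Acsl4 (-0.13), Cpt1a (0.24), Cpt2 (0.13), Acadvl (0.10), Hadh (0.37), Acaa1a (0.091), Acaa2 (0.46), Eci1 (0.20), Fasn (0.093), Acaca (-0.0019), Scd1 (0.55), Dgat2 (0.21), Lipe (0.20) and Mgll (0.25). With the macrophage mean they turned for Lpl (-0.20), Gpihbp1 (-0.13), Angptl4 (-0.42), Slc25a20 (-0.30), Acadm (-0.055), Hadha (-0.10), Decr1 (-0.26), Plin3 (-0.23) and Pnpla2 (-0.26). With both means they turned for Lpl (-0.29), Gpihbp1 (-0.23), Angptl4 (-0.56), Fabp1 (1.03), Fabp4 (0.023), Slc27a2 (0.051), Slc25a20 (-0.32), Hadha (-0.044), Ehhadh (0.51), Decr1 (-0.18), Fasn (0.012), Plin3 (-0.51), Pnpla2 (-0.35), Acsm1 (0.59), Elovl2 (0.53) and Hilpda (-0.017). Without KO 2 and WT 5 they turned for Angptl4 (-0.049), Fabp4 (0.033), Slc25a20 (-0.14), Decr1 (-0.069), Dgat1 (-0.023), Plin3 (-0.056) and Pnpla2 (-0.066), with array weights for Angptl4 (-0.082), Slc25a20 (-0.12), Acadm (-0.021), Decr1 (-0.10) and Plin3 (-0.035), with the intron control mean (chosen after seeing the data) for Fabp5 (0.045), Acaa1a (0.021), Lipe (0.023) and Mgll (0.024), with median centring for Fabp4 (0.0045), Fabp5 (0.035), Slc27a4 (0.016), Cpt2 (0.0008), Acaa1a (0.035), Lipe (0.0198) and Mgll (0.018) and with repeated quantile normalization for Angptl4 (-0.075), Slc25a20 (-0.0087), Acadm (-0.0035) and Pnpla2 (-0.0004). Leaving out 1 array turned Acaa1a (-0.12 to 0.11), Acaa2 (-0.31 to 0.10), Acaca (-0.018 to 0.10), Acadm (-0.026 to 0.12), Angptl4 (-0.12 to 0.12), Cpt1a (-0.26 to 0.052), Cpt2 (-0.13 to 0.022), Decr1 (-0.069 to 0.22), Eci1 (-0.16 to 0.016), Fabp4 (-0.12 to 0.09), Fabp5 (-0.20 to 0.17), Fasn (-0.12 to 0.006), Hadh (-0.37 to 0.12), Lipe (-0.24 to 0.084), Mgll (-0.18 to 0.11), Plin3 (-0.054 to 0.13), Pnpla2 (-0.049 to 0.15), Slc25a20 (-0.14 to 0.14) and Slc27a4 (-0.076 to 0.044). The cause of these changes was not tested.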
